A study of Mus musculus with 12 samples.

Results

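The genes described here are 10 mouse genes of the inflammasome and of inflammatory cytokine signalling, Il1a, Il1b, Il18, Il1rn, Tnf, Nlrp3, Pycard, Casp1, Casp4 and Casp12, measured in hippocampus tissue by bulk RNA sequencing. They were taken by name: each symbol was matched to its Ensembl identifier, and all 10 were found among the 56980 gene rows of the count table. The rule that picks them uses no measured value, but the set was drawn up with earlier results of these data known. Of the 10, 7 passed the filter on low counts and were tested among 19152 genes, and Il1b, Il1rn and Tnf had too few counts for a test. The libraries came from 12 male mice, 1 per mouse, all with the App NL-G-F allele knocked in, an amyloid precursor protein gene with a humanised amyloid sequence and familial mutations that leads to plaques. They formed 4 groups of 3 mice: App NL-G-F with Trem2 knockout at 9 months, App NL-G-F at 9 months, App NL-G-F with Trem2 knockout at 3 months and App NL-G-F at 3 months, called Trem2-KO and App-KI below. Trem2 is a lipid-sensing receptor of microglia, and the labels leave unsaid where the gene was deleted. There was no group without the App knock-in, so age and amyloid load cannot be told apart.

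An inflammasome is a cytosolic protein complex that turns a danger signal into active inflammatory caspase. A sensor such as NLRP3 recruits the adaptor ASC, encoded by Pycard, which recruits pro-caspase-1, and active caspase-1 cuts the precursors of IL-1β and IL-18 and the pore-forming protein gasdermin D. Transcription of Nlrp3, Il1a, Il1b and Tnf is known to be raised by NF-kB, a step called priming, whereas Il18 is known as a gene with a steady basal level in many tissues. In the brain, microglia are the best known source of these transcripts, and the activity of the complex itself is set after transcription, so mRNA levels do not measure it.

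The library totals ran from 14627892 to 24594655 counts, and a count of 3, taken as the limit behind a count of 0, corresponded to 0.122 to 0.205 CPM per library. CPM are counts in 1000000 of the scaled library size, and limits and intervals cover counting error only. Trem2 itself averaged 3.74 ± 0.110 CPM in Trem2-KO mice and 52.7 ± 2.90 CPM in App-KI mice at 9 months, and 1.98 ± 0.165 CPM in Trem2-KO mice and 9.19 ± 1.15 CPM in App-KI mice at 3 months (SD, n = 3 each). App was called in no comparison. The summed level of 10 neuron markers lay between 9111 and 10451 CPM in all libraries. The summed level of 20 microglial markers ran from 1053 to 1129 CPM in Trem2-KO mice and from 1828 to 1963 CPM in App-KI mice at 9 months, and from 661 to 684 CPM in Trem2-KO mice and from 702 to 733 CPM in App-KI mice at 3 months. Trem2 is 1 of these 20 microglial markers. In tissue RNA of this kind, fewer cells of a type and less RNA per cell cannot be told apart. Markers of choroid plexus and ependyma, which border the hippocampus, varied widely within groups, from 58.8 to 3146 CPM over the 12 libraries.

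The promoters of the 3 members that changed with age or genotype, Il1a, Pycard and Casp12, are shown to set side by side what lies upstream of them. Each window holds the 250 bases before the RefSeq transcription start on build GRCm38.p6, read 5′ to 3′ on the strand of the gene, and capitals mark a motif match. Il1a is on the minus strand at chr2:129309973-129310222, Pycard on the minus strand at chr7:127993868-127994117 and Casp12 on the plus strand at chr9:5345226-5345475.
Il1a: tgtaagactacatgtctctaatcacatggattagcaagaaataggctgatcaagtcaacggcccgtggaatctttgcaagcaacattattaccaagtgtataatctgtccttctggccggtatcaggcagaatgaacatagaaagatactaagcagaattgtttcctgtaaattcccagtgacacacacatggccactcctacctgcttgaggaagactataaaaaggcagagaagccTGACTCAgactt
Pycard: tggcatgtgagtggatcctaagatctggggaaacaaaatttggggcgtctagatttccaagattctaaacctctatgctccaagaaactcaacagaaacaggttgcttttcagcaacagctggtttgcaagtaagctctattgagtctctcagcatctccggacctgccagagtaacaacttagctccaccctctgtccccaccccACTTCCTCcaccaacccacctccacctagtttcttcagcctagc
Casp12: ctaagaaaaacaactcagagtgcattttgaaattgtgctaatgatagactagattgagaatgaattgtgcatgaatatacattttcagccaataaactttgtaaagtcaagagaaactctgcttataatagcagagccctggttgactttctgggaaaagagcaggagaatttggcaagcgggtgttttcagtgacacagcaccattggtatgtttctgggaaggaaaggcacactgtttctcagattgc
The motifs searched on both strands of the full windows, which run on to 50 bases after the start, were NF-kB (GGGANNTTC), AP-1 (TGANTCA) and PU.1 (GAGGAAGT), the last a myeloid factor. Il1a held an AP-1 match from 12 to 6 bases before the start, and Pycard held a PU.1 match on the opposite strand, 44 to 37 bases before the start. Casp12 held none of the 3. Among all 32851 promoter windows of this length, 7.81% held the AP-1 motif, 3.20% the PU.1 motif and 3.94% the NF-kB motif. Of the other members, Il1rn held an AP-1 match, 141 to 135 bases before the start. Tnf held an NF-kB match that lies 4 to 12 bases after the start, not upstream of it. No match to these strings was found in the windows of Il1b, Il18, Nlrp3, Casp1 and Casp4. Other forms of the NF-kB site were not searched, so these windows may hold such a site. A match is only a run of letters in this window.

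Levels of different genes were compared per kilobase of annotated exon, in CPM per kilobase. Il18 stood first in every group, with means of 23.4 ± 2.13 in Trem2-KO mice and 22.3 ± 1.97 in App-KI mice at 9 months, and 23.5 ± 1.51 in Trem2-KO mice and 23.9 ± 1.51 in App-KI mice at 3 months (SD, n = 3 each). Casp1 came next, with group means between 1.36 and 2.72, and then Pycard, between 0.695 and 1.73. At 9 months the libraries of Casp1 and Pycard overlapped in both genotypes, so their order could not be told there. Casp12 took the fourth place except in App-KI mice at 9 months, and its libraries overlapped those of Il1a, the next gene, in Trem2-KO mice at 9 months and in App-KI mice at 3 months. In App-KI mice at 9 months its mean of 0.408 stood below those of Il1a, at 0.912, and Nlrp3, at 0.470, and overlapped the libraries of Nlrp3. Il1b and Casp4 lay between 0.0618 and 0.227, Tnf at 0.0544 or less and Il1rn at 0.0304 or less, and neighbours among these low genes mostly overlapped. With the length of a curated transcript in place of all annotated exons, Casp12 in App-KI mice at 9 months stood above Nlrp3, at 0.592 against 0.474 and again with overlap. On that length Casp4 stood between 0.244 and 0.451, since its annotated exons run well beyond that transcript.

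**Figure D1:**
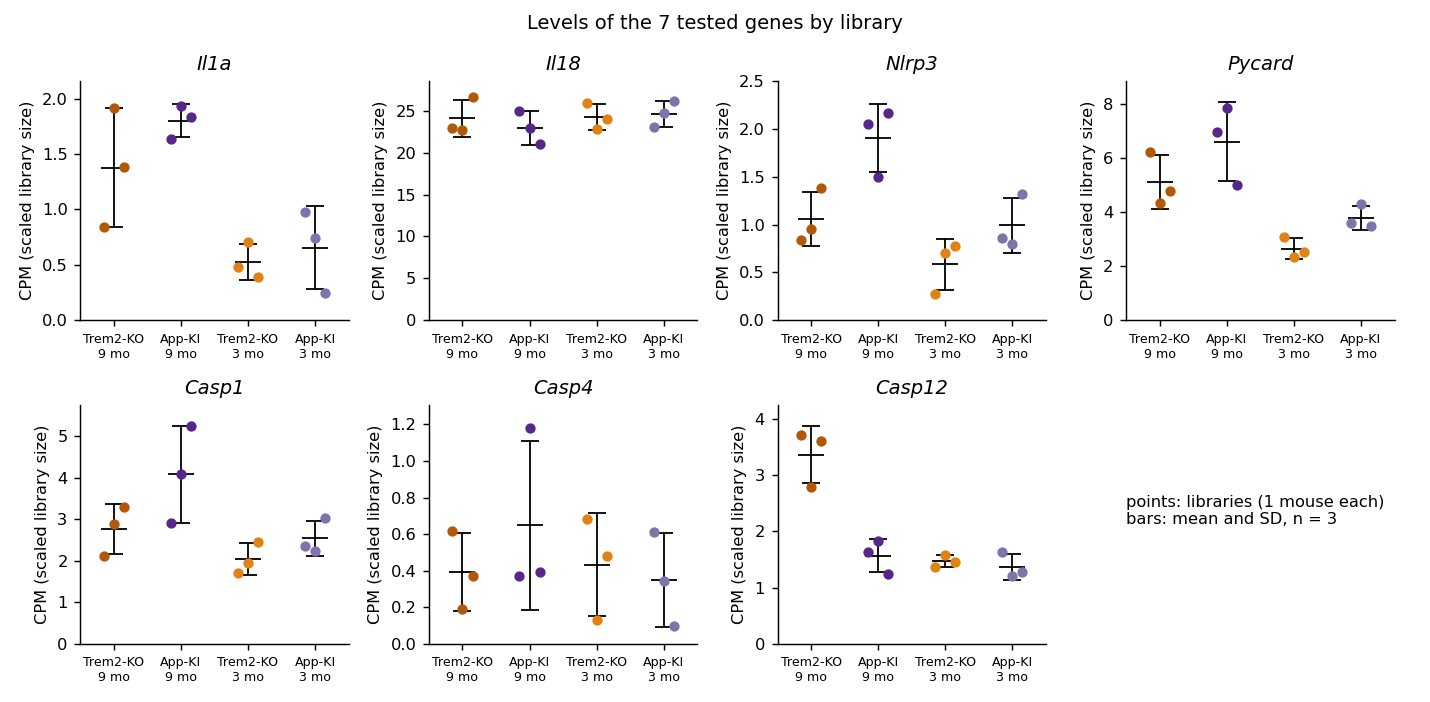
Levels of the 7 tested genes in CPM (vertical axis, linear from 0, a scale of its own for each gene) in each library, with groups on the horizontal axis, points for libraries and bars for the mean and SD (n = 3). The 3 Trem2-KO libraries at 9 months stand apart for Casp12, between 2.78 and 3.71 CPM, while Il18 lies between 21.0 and 26.7 CPM in all 12 libraries.

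Among the cytokines, Il1a, which encodes IL-1α, an IL-1 receptor ligand active without cleavage by caspase-1, was higher at 9 than at 3 months in both genotypes. It had 0.838, 1.92 and 1.38 CPM in the 3 Trem2-KO mice at 9 months, against 0.480, 0.703 and 0.386 CPM at 3 months. In App-KI mice it had 1.63, 1.93 and 1.84 CPM at 9 months, against 0.978, 0.742 and 0.244 CPM at 3 months. The groups did not overlap in either genotype. The log2 fold change of 9 over 3 months was 1.36 ± 0.41 in Trem2-KO mice (edgeR adjusted p = 0.0438) and 1.43 ± 0.39 in App-KI mice (edgeR adjusted p = 0.0276; ± SE, 3 libraries per group). The raw counts behind these values were 5 to 40 per library, and both calls rested on few libraries. In App-KI mice the call was lost without replicate 2 or 3 at 3 months and without each replicate at 9 months, with edgeR adjusted p between 0.0620 and 0.144. In Trem2-KO mice it was lost without each replicate at 3 months, without replicate 2 or 3 at 9 months and without 4 of the App-KI libraries, with edgeR adjusted p up to 0.222. Between genotypes its libraries overlapped at both ages, with log2 fold changes of -0.39 ± 0.35 at 9 months (edgeR adjusted p = 0.688) and -0.32 ± 0.46 at 3 months (edgeR adjusted p = 0.872). In the reference annotation the exons of Il1a overlap those of an unnamed gene on the opposite strand, Gm14023, over 222 bases, and since the strand setting of the counting is not given in the sources used here, the counts of Il1a are uncertain to that extent.

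Il18, the IL-1 family cytokine that caspase-1 matures and that acts on lymphocytes, was the most abundant member and passed the threshold in none of the comparisons. It had 23.0, 22.8 and 26.7 CPM in Trem2-KO libraries and 25.0, 23.0 and 21.0 CPM in App-KI libraries at 9 months. At 3 months it had 25.9, 22.8 and 24.0 CPM in Trem2-KO libraries and 23.0, 24.7 and 26.1 CPM in App-KI libraries. All 4 groups overlapped. With 320 to 565 counts per library it was also the best measured member, with standard errors near 0.09 on the log2 scale: the log2 fold change was 0.07 ± 0.09 for genotype at 9 months (edgeR adjusted p = 0.809), -0.03 ± 0.09 for genotype at 3 months (edgeR adjusted p = 0.957), -0.10 ± 0.09 for age in App-KI mice (edgeR adjusted p = 0.684) and -0.00 ± 0.09 for age in Trem2-KO mice (edgeR adjusted p = 0.986). Set against the summed level of 19 microglial markers without Trem2, Il18 stood at 22.1 ± 1.93 CPM per 1000 marker CPM in Trem2-KO mice and 12.4 ± 1.53 in App-KI mice at 9 months. At 3 months this ratio was 36.0 ± 1.998 in Trem2-KO mice and 34.5 ± 1.49 in App-KI mice (SD, n = 3 each). The ratio was lower at 9 than at 3 months in each genotype without overlap of the libraries. This follows from the marker sum, which rose with age while Il18 did not change detectably. Any gene with an unchanged level gives such a fall, so the ratio does not show less Il18 per microglial cell.

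The remaining cytokine genes were barely sampled. Il1b, which encodes IL-1β, the main inflammasome product, had 5, 2 and 2 counts in Trem2-KO libraries and 10, 7 and 6 counts in App-KI libraries at 9 months. At 3 months it had 1, 1 and 5 counts in Trem2-KO libraries and 5, 5 and 7 counts in App-KI libraries. Summed over the group, 9 counts in Trem2-KO mice at 9 months came to 0.144 CPM (exact 95% Poisson interval 0.0660 to 0.274) and 23 counts in App-KI mice to 0.435 CPM (0.276 to 0.653). Il1b was also fitted without the filter on low counts. Its log2 fold change between genotypes at 9 months was then -1.55 (edgeR unadjusted p = 0.0268, edgeR adjusted p = 0.390). With a minimum count of 5 it was -1.56 (edgeR unadjusted p = 0.0201, edgeR adjusted p = 0.272). Neither passed the adjusted threshold. In CPM the Il1b libraries of the genotypes did not overlap at 9 months (0.0958 to 0.221 in Trem2-KO, 0.375 to 0.527 in App-KI). At 3 months they overlapped. In the annotation its exons overlap those of an antisense gene, Il1bos, over 25 bases.

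Il1rn, which encodes the IL-1 receptor antagonist that blocks both IL-1α and IL-1β, had 0, 0 and 1 counts in Trem2-KO libraries and 2, 5 and 2 counts in App-KI libraries at 9 months. All 6 libraries at 3 months held 0 counts. The 9 counts of the App-KI mice at 9 months came to 0.170 CPM over the group (exact 95% Poisson interval 0.0779 to 0.323). For the 0 counts at 3 months, the same interval ran up to 0.0635 CPM in Trem2-KO mice and 0.0590 CPM in App-KI mice. A count of 3 over the group corresponded to 0.0516 CPM in Trem2-KO mice and 0.0480 CPM in App-KI mice. Without the filter, Il1rn had an edgeR adjusted p of 0.119 for 9 against 3 months in App-KI mice and of 0.493 between genotypes at 9 months. Tnf, which encodes tumour necrosis factor, had 11 counts over all 12 libraries and 0 in 5 of them. They were 1, 1 and 0 in Trem2-KO libraries and 1, 4 and 0 in App-KI libraries at 9 months, and 0, 1 and 0 in Trem2-KO libraries and 0, 2 and 1 in App-KI libraries at 3 months. Differences of Tnf were not detectable at this depth.

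**Figure D2:**
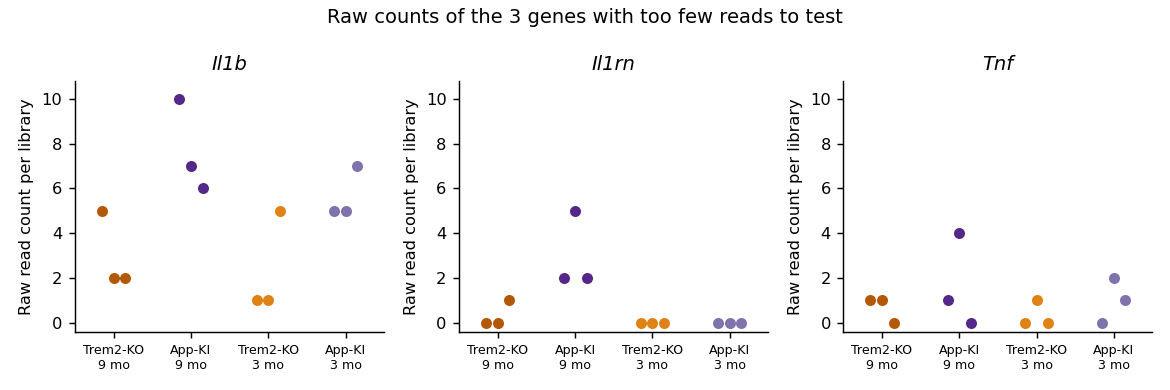
Raw read counts per library (vertical axis, linear) of Il1b, Il1rn and Tnf, the members with too few counts to test, by group on the horizontal axis, with 1 point per library. Il1rn has 2 to 5 counts in App-KI mice at 9 months and at most 1 in any other library, and Tnf has at most 4 counts anywhere.

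Nlrp3, the sensor that responds to potassium efflux, crystals and lysosomal damage, had lower values in all Trem2-KO libraries than in all App-KI libraries of the same age, but no difference passed the adjusted threshold. At 9 months it had 0.838, 0.958 and 1.38 CPM in Trem2-KO libraries and 2.06, 1.50 and 2.16 CPM in App-KI libraries. At 3 months it had 0.274, 0.703 and 0.771 CPM in Trem2-KO libraries and 0.856, 0.799 and 1.32 CPM in App-KI libraries. The groups did not overlap at either age, though at 3 months the gap between the nearest libraries was small. The log2 fold change between genotypes was -0.85 ± 0.32 at 9 months (unadjusted p = 0.0143, edgeR adjusted p = 0.208) and -0.70 ± 0.37 at 3 months (edgeR adjusted p = 0.504). The libraries of 9 and 3 months did not overlap in either genotype, with a log2 fold change of 0.78 ± 0.37 in Trem2-KO mice (edgeR adjusted p = 0.206) and 0.93 ± 0.32 in App-KI mice (edgeR adjusted p = 0.0933). Nlrp3 had 4 to 39 counts per library.

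Pycard, the gene of the adaptor ASC that links sensor and caspase and forms the speck seen under the microscope, rose with age in both genotypes. It had 6.22, 4.31 and 4.77 CPM in Trem2-KO libraries at 9 months, against 3.08, 2.33 and 2.51 CPM at 3 months, a log2 fold change of 0.97 ± 0.20 (edgeR adjusted p = 0.0041). In App-KI mice it had 6.96, 7.83 and 4.99 CPM at 9 months, against 3.59, 4.28 and 3.46 CPM at 3 months, a log2 fold change of 0.81 ± 0.19 (edgeR adjusted p = 0.0091). Every library at 9 months stood above every library at 3 months of the same genotype. Between genotypes the libraries overlapped at 9 months, with a log2 fold change of -0.37 ± 0.18 (edgeR adjusted p = 0.380). At 3 months all Trem2-KO libraries lay below all App-KI libraries, with a log2 fold change of -0.53 ± 0.20 that did not pass the adjusted threshold (unadjusted p = 0.0176, edgeR adjusted p = 0.307). The call in App-KI mice was lost without replicate 3 at 3 months (edgeR adjusted p = 0.0542) and without replicate 1 (edgeR adjusted p = 0.0523) or replicate 2 (edgeR adjusted p = 0.0809) at 9 months. The exons of Pycard overlap those of an unnamed gene on the opposite strand, Gm45205, over 485 bases, so its counts carry the same uncertainty as those of Il1a.

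The microglial markers moved with age too: 18 of 20 were called higher at 9 than at 3 months in Trem2-KO mice and all 20 in App-KI mice. Of all tested genes, 5.68% in Trem2-KO mice and 3.95% in App-KI mice were called higher with age. The median log2 fold changes of these markers were 0.68 in Trem2-KO mice and 1.25 in App-KI mice. Between genotypes all 20 were lower in Trem2-KO mice at 9 months and 17 of 20 were called lower, where 1.39% of all genes were. For the interaction 11 of 20 were called lower, where 0.209% of all genes were. Trem2, the deleted gene, is 1 of the 20 and is counted among the called markers in each of these comparisons. Per 1000 CPM of the 19 microglial markers without Trem2, Pycard stood at 4.69 ± 1.10 CPM in Trem2-KO mice and 3.56 ± 0.791 in App-KI mice at 9 months, and at 3.92 ± 0.558 in Trem2-KO mice and 5.29 ± 0.564 in App-KI mice at 3 months (SD, n = 3 each). On that scale Pycard in App-KI mice was lower at 9 than at 3 months without overlap of the libraries, and in Trem2-KO mice the libraries of both ages overlapped. Casp1 and Casp12 were lower with age on that scale in App-KI mice too, again without overlap. Casp1 stood there at 2.19 ± 0.579 against 3.56 ± 0.570, and Casp12 at 0.846 ± 0.160 against 1.92 ± 0.381. Such a fall arises where the marker sum rises more than the gene, so it does not show less Pycard per microglial cell. Il1a stood at 1.25 ± 0.452 in Trem2-KO mice and 0.970 ± 0.0446 in App-KI mice at 9 months, and at 0.781 ± 0.258 in Trem2-KO mice and 0.925 ± 0.545 in App-KI mice at 3 months, with overlap of the libraries between ages in both genotypes. Nlrp3 stood at 0.965 ± 0.243 in Trem2-KO mice and 1.03 ± 0.213 in App-KI mice at 9 months, and at 0.868 ± 0.401 in Trem2-KO mice and 1.39 ± 0.383 in App-KI mice at 3 months. Markers of other cells moved with age as well. The 12 astrocyte markers summed to 5802 to 6228 CPM in Trem2-KO mice at 9 months, against 4462 to 4587 CPM at 3 months, and to 6531 to 6968 CPM in App-KI mice at 9 months, against 4651 to 4916 CPM at 3 months. Of these 12, 5 were called higher with age in Trem2-KO mice and 4 in App-KI mice, and none was at 0 in a whole group. Their median log2 fold changes of age were only 0.20 in Trem2-KO mice and 0.17 in App-KI mice. The 12 neutrophil markers summed to 14.3 to 16.5 CPM in Trem2-KO mice at 9 months, against 4.93 to 11.1 CPM at 3 months, and to 16.5 to 27.9 CPM in App-KI mice at 9 months, against 5.80 to 7.46 CPM at 3 months. Of the 5 neutrophil markers tested, 1 was called higher with age in each genotype. Cxcr2 was at 0 in every group but App-KI at 9 months, and Elane was at 0 in Trem2-KO mice at 9 months. Between genotypes at 9 months, 1 of the 5 was called lower in Trem2-KO mice, where 1.39% of all genes were. However, 3 of the 5 were higher there (median log2 fold change 0.48), so most tested markers did not share the lower sum. The part of microglial, astrocyte and neutrophil markers in the changes of these genes was not tested.

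Casp1, the protease at the centre of the canonical inflammasome, passed the adjusted threshold in no comparison. It had 2.12, 2.88 and 3.29 CPM in Trem2-KO libraries and 2.90, 4.08 and 5.25 CPM in App-KI libraries at 9 months, and 1.71, 1.93 and 2.46 CPM in Trem2-KO libraries and 2.36, 2.23 and 3.02 CPM in App-KI libraries at 3 months. Neighbouring groups overlapped throughout. The log2 fold change was -0.56 ± 0.23 between genotypes at 9 months (unadjusted p = 0.0250, edgeR adjusted p = 0.274) and 0.67 ± 0.23 for 9 against 3 months in App-KI mice (unadjusted p = 0.0091, edgeR adjusted p = 0.0977). It was -0.31 ± 0.25 between genotypes at 3 months (edgeR adjusted p = 0.715) and 0.42 ± 0.25 for age in Trem2-KO mice (edgeR adjusted p = 0.325). Without replicate 1 of the App-KI mice at 9 months, the age difference in App-KI mice was called, at 0.86 with an edgeR adjusted p of 0.0467.

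Casp4, which in the mouse encodes caspase-11, the sensor and protease for cytosolic lipopolysaccharide, had 2 to 22 counts per library and wide spread within every group. At 9 months it had 0.618, 0.192 and 0.371 CPM in Trem2-KO libraries and 0.369, 1.18 and 0.394 CPM in App-KI libraries. At 3 months it had 0.685, 0.132 and 0.482 CPM in Trem2-KO libraries and 0.611, 0.343 and 0.0976 CPM in App-KI libraries. All groups overlapped, and standard errors of 0.64 to 0.70 on the log2 scale for the differences of age and of genotype left differences of the size seen for Pycard undetectable.

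Casp12, a caspase of the inflammatory group that has been tied to the endoplasmic reticulum in the mouse, was the member called between genotypes: it was higher in Trem2-KO mice than in App-KI mice at 9 months. It had 3.71, 2.78 and 3.61 CPM in Trem2-KO libraries and 1.63, 1.82 and 1.25 CPM in App-KI libraries at 9 months. At 3 months it had 1.37, 1.58 and 1.45 CPM in Trem2-KO libraries and 1.63, 1.20 and 1.27 CPM in App-KI libraries. The 3 Trem2-KO libraries at 9 months lay above the 9 others, and the 3 other groups overlapped. The log2 fold change between genotypes at 9 months was 1.09 ± 0.23 (edgeR adjusted p = 0.0115), and for 9 against 3 months in Trem2-KO mice it was 1.19 ± 0.23 (edgeR adjusted p = 0.0022). These contrasts share the 3 Trem2-KO libraries at 9 months. In App-KI mice the log2 fold change of age was 0.20 ± 0.25 (edgeR adjusted p = 0.780), and between genotypes at 3 months it was 0.10 ± 0.25 (edgeR adjusted p = 0.936). The difference between both age changes was 0.99 ± 0.33 (unadjusted p = 0.0075) and did not pass the adjusted threshold (edgeR adjusted p = 0.461). The genotype call was lost without Trem2-KO replicate 1 (1.01, edgeR adjusted p = 0.0648) and without App-KI replicate 3 (0.96, edgeR adjusted p = 0.0794) at 9 months. The annotation places Casp1, Casp4 and Casp12 side by side on chromosome 9, in that order between Gria4 and Pdgfd, and no stretch of 50 bases of Casp12 is shared with another annotated gene.

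Sums of markers of other cells were set beside Casp12. The summed level of 10 markers of meningeal and perivascular fibroblasts was 348, 244 and 374 CPM in Trem2-KO libraries at 9 months, and it ran from 160 to 193 CPM in App-KI mice at 9 months, from 153 to 228 CPM in Trem2-KO mice at 3 months and from 166 to 214 CPM in App-KI mice at 3 months. Within groups, the library with the lowest Casp12 had no constant place in these sums. In Trem2-KO mice at 9 months it had the lowest sums of fibroblast, border macrophage and mural cell markers (244, 25.0 and 334 CPM). It did not have the lowest sum of endothelial markers there (498 CPM, against 497 CPM in replicate 3). In App-KI mice at 9 months it also had the lowest of the former sums (160, 13.2 and 243 CPM). In Trem2-KO mice at 3 months it had the highest of them (228, 17.7 and 304 CPM). In App-KI mice at 3 months it had the lowest border macrophage sum (16.0 CPM) but not the lowest fibroblast or mural cell sum. Of the 10 fibroblast markers, 5 were called higher at 9 than at 3 months in Trem2-KO mice, where 5.68% of all genes were. None was called between genotypes at 9 months, where 9 of 10 had an unadjusted p under 0.05 in edgeR, against 13.6% of all genes. No marker of this list was at 0 in a whole group. The 12 markers of border macrophages and monocytes summed to 25.0 to 35.4 CPM in Trem2-KO mice and 13.2 to 22.3 CPM in App-KI mice at 9 months, and to 11.6 to 17.7 CPM in Trem2-KO mice and 16.0 to 23.7 CPM in App-KI mice at 3 months. The 10 mural cell markers summed to 334 to 410 CPM in Trem2-KO mice and 243 to 340 CPM in App-KI mice at 9 months, and to 237 to 304 CPM in Trem2-KO mice and 255 to 289 CPM in App-KI mice at 3 months. The 10 endothelial markers summed to 497 to 537 CPM in Trem2-KO mice and 429 to 463 CPM in App-KI mice at 9 months, and to 422 to 434 CPM in Trem2-KO mice and 423 to 445 CPM in App-KI mice at 3 months. Of these 10, 4 were called higher with age in Trem2-KO mice, where 5.68% of all genes were. Between genotypes at 9 months 1 was called higher in Trem2-KO mice, where 0.684% of all genes were, and none was at 0 in a whole group. The part of these cells in the level of Casp12 was not tested. Choroid plexus and ependyma markers summed to 3146, 2478 and 88.7 CPM in the Trem2-KO libraries at 9 months. In the same order these libraries had 3.71, 2.78 and 3.61 CPM of Casp12. The part of choroid plexus tissue in the level of Casp12 was not tested either.

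**Figure D3:**
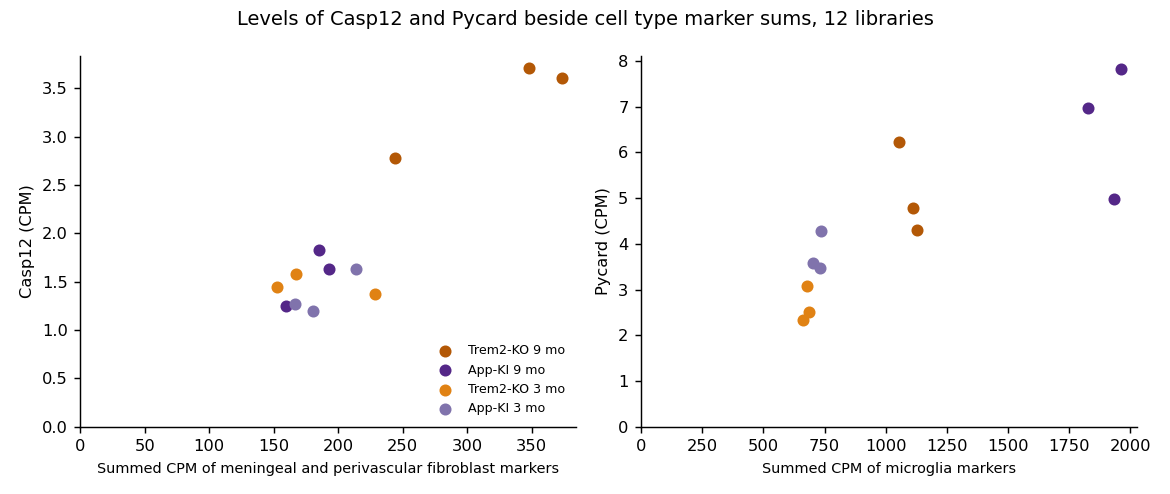
Casp12 in CPM (vertical axis, left panel) against the summed CPM of 10 meningeal and perivascular fibroblast markers, and Pycard in CPM (vertical axis, right panel) against the summed CPM of 20 microglial markers, with 1 point per library (n = 12) coloured by group. The Trem2-KO libraries at 9 months hold the 3 highest values on both axes of the left panel, and in the right panel the libraries at 9 months lie to the right of those at 3 months.

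Among the tested members, calls were counted as follows and set against all tested genes. Between genotypes at 9 months, 1 member was called higher, Casp12, and none lower, where 2.08% of all tested genes were called, 0.684% higher and 1.39% lower. At 3 months no member was called in edgeR, where 0.59% of all genes were; 1 member, Pycard, had an unadjusted p under 0.05 in edgeR, against 11.2% of all genes, and DESeq2 called none. In App-KI mice 2 members, Il1a and Pycard, were called higher at 9 than at 3 months and none lower, where 6.66% of all genes were called and 3.95% were called higher. In Trem2-KO mice 3 members, Il1a, Pycard and Casp12, were called higher and none lower, where 8.7% of all genes were called and 5.68% were called higher. No member was called for the interaction of age and genotype in edgeR, where 0.266% of all genes were; 1 member, Casp12, had an unadjusted p under 0.05, against 6.04% of all genes, and DESeq2 called none. At an unadjusted p under 0.05, the other counts were 3 members between genotypes at 9 months, 4 for age in App-KI mice and 4 for age in Trem2-KO mice, against 13.6% of all genes between genotypes, 17.1% for age in App-KI mice and 22.7% for age in Trem2-KO mice. Groups that did not overlap were found lower in Trem2-KO mice for 1 member at 9 months and for 2 at 3 months, against 9.04% and 8.94% of all genes, and higher for 1 member at 9 months, against 8.28%. For age they were found higher for 3 members in App-KI mice and for 4 in Trem2-KO mice, against 11.2% and 13.5% of all genes. With 3 of the 10 members untested, these counts describe the tested genes only. Both genotype comparisons and both age comparisons draw on the same 4 groups, so each group enters more than 1 comparison.

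**Figure D4:**
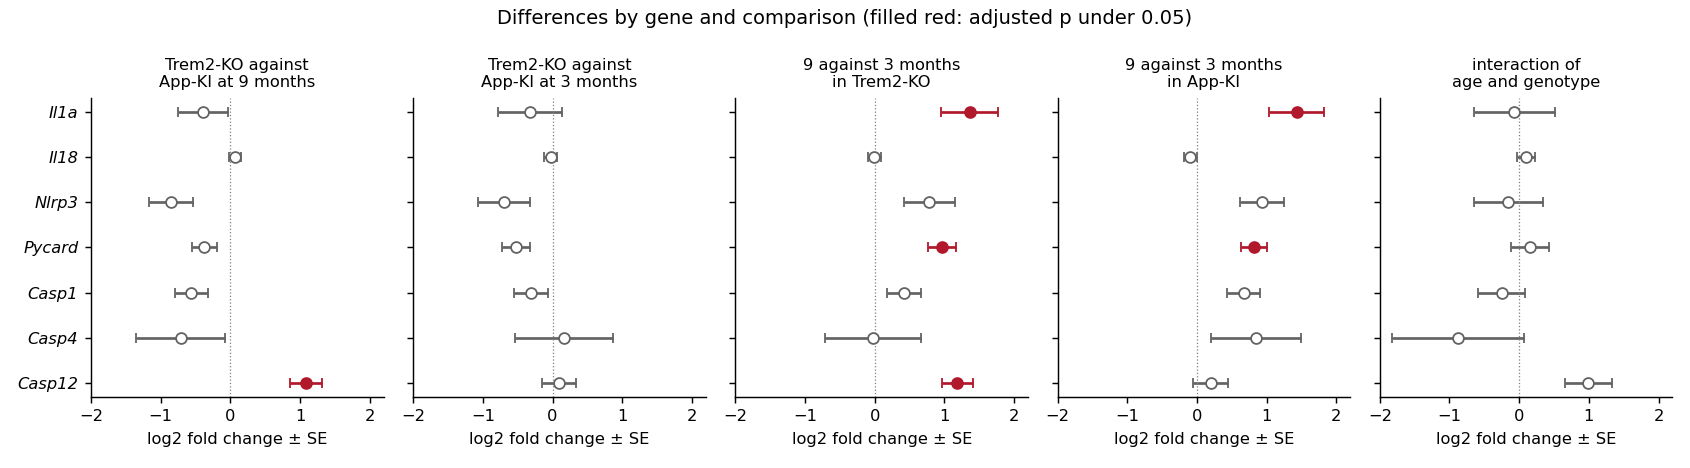
Log2 fold changes (horizontal axis, ± SE) of the 7 tested genes in the 5 comparisons, 1 panel each, with filled red points for an edgeR adjusted p under 0.05. Il1a and Pycard are called in both age panels near 1.4 and 0.8 to 1.0, Casp12 is called in the 9-month genotype panel and the Trem2-KO age panel at 1.09 and 1.19, and nothing is called in the panels for 3 months and for the interaction.

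The patterns most like each member were sought over the 12 libraries as the smallest root mean square difference in centred log2(CPM + 0.5), a description that takes in shared depth and composition. For Casp12 they were Slc22a8, an organic anion transporter, at 0.119, Thbs2, a thrombospondin of the matrix, at 0.134, and Fbln1, the matrix protein fibulin 1, at 0.165, where Casp12 itself varied by 0.448 around its own mean. Thbs2 averaged 13.8 ± 0.753 CPM in Trem2-KO mice and 7.81 ± 0.381 CPM in App-KI mice at 9 months, and 6.63 ± 0.555 CPM in Trem2-KO mice and 6.35 ± 0.647 CPM in App-KI mice at 3 months (SD, n = 3 each). For Nlrp3 they were Spi1, which encodes PU.1, at 0.209, the kinase gene Lyn at 0.210 and the cytokine receptor gene Crlf2 at 0.234. For Il1a they were Il21r at 0.218, Btk at 0.246 and the microglial marker Itgam at 0.248, and for Pycard they were Psd4 at 0.166, Pik3r5 at 0.181 and the lymphoid and myeloid factor gene Ikzf1 at 0.190. For Casp1 the nearest was Pmaip1 at 0.194, and for Il18, which varied by 0.0964 around its mean, it was Slc50a1 at 0.0458.

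The wider pathway was described with 8 lists of 137 genes, of which 135 were matched and 100 tested. Over these 100 genes, 24 were called higher and 1 lower at 9 than at 3 months in Trem2-KO mice, where 5.68% of all genes were called higher and 3.02% lower, and 26 were called higher and none lower in App-KI mice, where 3.95% of all genes were called higher and 6.66% in either direction. The medians were 0.24 in both genotypes on the log2 scale, where the median of all tested genes was 0.00. Between genotypes at 9 months 1 was called higher and 3 lower, where 0.684% of all genes were called higher and 1.39% lower. In edgeR none was called at 3 months or for the interaction, where DESeq2 called 1 gene each. The count for age in Trem2-KO mice was 13 without replicate 3 of that group at 3 months and 15 without replicate 2 at 3 months or replicate 2 at 9 months.

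Among other inflammasome sensors, 3 of 10 tested genes were called higher at 9 months in Trem2-KO mice and 5 of 10 in App-KI mice, where 5.68% of all genes in Trem2-KO mice and 3.95% in App-KI mice were called higher. The same shares stand behind the age counts of the lists that follow. Naip2, an intracellular sensor of bacterial secretion proteins, rose by 1.99 ± 0.31 in Trem2-KO mice (edgeR adjusted p = 0.000396) and by 2.10 ± 0.29 in App-KI mice (edgeR adjusted p = 5.24e-05), and Naip5 rose by 1.14 ± 0.31 in Trem2-KO mice and by 2.03 ± 0.30 in App-KI mice, all on the log2 scale (± SE). The Naip genes are near-identical copies, so how reads were split among them is uncertain. Nlrc5, a regulator of class I antigen presentation, rose by 1.87 ± 0.33 in App-KI mice. Among 16 triggers and regulators, 8 were called higher with age in Trem2-KO mice and 6 in App-KI mice. Cybb, the NADPH oxidase subunit of phagocytes, had 2.38 ± 0.273 CPM in Trem2-KO mice and 5.18 ± 0.798 CPM in App-KI mice at 9 months and was the only one of this list called between genotypes, at -1.12 ± 0.23 (edgeR adjusted p = 0.0118). P2rx7, the ATP-gated channel that drives potassium efflux, rose with age by 0.56 ± 0.10 in App-KI mice (edgeR adjusted p = 0.00125), and Nek7, the kinase that binds NLRP3, by 0.24 ± 0.06 in Trem2-KO mice (edgeR adjusted p = 0.0155).

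Downstream of the caspases, Gsdmd, the gene of the pore protein gasdermin D, averaged 6.31 ± 0.694 CPM in Trem2-KO mice and 6.15 ± 1.76 CPM in App-KI mice at 9 months, and 3.44 ± 0.370 CPM in Trem2-KO mice and 3.93 ± 0.291 CPM in App-KI mice at 3 months (SD, n = 3 each). It rose with age by 0.86 ± 0.19 in Trem2-KO mice (edgeR adjusted p = 0.00616) and by 0.65 ± 0.18 in App-KI mice (edgeR adjusted p = 0.0353). Casp8, a caspase that also feeds into cell death by apoptosis, rose by 0.67 ± 0.18 in Trem2-KO mice and 0.77 ± 0.18 in App-KI mice. Gsdme, another gasdermin, was the one gene of the 8 lists called lower with age, with a log2 fold change of -0.19 ± 0.06 in Trem2-KO mice (edgeR adjusted p = 0.0404). In this list of 9 tested genes, 2 were called higher and 1 lower with age in Trem2-KO mice, 2 were called higher in App-KI mice, and none was called between genotypes.

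On the receiving side, 7 of 14 matched receptor and inhibitor genes of the IL-1 and IL-18 family were tested. Il33, an IL-1 family cytokine made by astrocytes and oligodendrocytes, rose with age by 0.84 ± 0.09 in Trem2-KO mice (edgeR adjusted p = 0.000109) and 0.71 ± 0.09 in App-KI mice (edgeR adjusted p = 0.000281), and Il1r1, the signalling receptor of IL-1, by 0.42 ± 0.08 in Trem2-KO mice (edgeR adjusted p = 0.00229). Il1rap, its shared co-receptor and the most abundant of the list, averaged between 93.7 and 107 CPM in the 4 groups and was not called. Of 13 genes of IL-1 and Toll signalling, 3 were called higher with age in Trem2-KO mice and 2 in App-KI mice. Between genotypes at 9 months, Irak1 was higher, with 99.2 ± 4.22 CPM in Trem2-KO mice and 83.0 ± 3.14 CPM in App-KI mice, a log2 fold change of 0.26 ± 0.05 (edgeR adjusted p = 0.0124). Irak2 was lower, with 27.7 ± 1.10 CPM in Trem2-KO mice and 35.4 ± 0.641 CPM in App-KI mice, a log2 fold change of -0.36 ± 0.08 (edgeR adjusted p = 0.0132). Both encode kinases of the IL-1 receptor complex, and Irak3, an inhibitory member of that family, rose with age by 1.22 ± 0.26 in Trem2-KO mice and 0.95 ± 0.25 in App-KI mice.

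Of 15 NF-kB factors and inhibitors, 1 was called with age in each genotype: Rela, the p65 subunit, at 0.28 ± 0.09 in Trem2-KO mice (edgeR adjusted p = 0.0458) and Bcl3, an atypical IkB protein, at 2.37 ± 0.36 in App-KI mice (edgeR adjusted p = 0.000157). For TNF, whose own gene was at the limit of detection, both receptor genes rose with age. Tnfrsf1a averaged 17.8 ± 1.01 CPM in Trem2-KO mice and 17.8 ± 1.58 CPM in App-KI mice at 9 months, and 9.16 ± 0.389 CPM in Trem2-KO mice and 9.77 ± 0.803 CPM in App-KI mice at 3 months, with log2 fold changes of age of 0.96 ± 0.11 in Trem2-KO mice and 0.86 ± 0.11 in App-KI mice. Tnfrsf1b rose by 0.60 ± 0.13 in Trem2-KO mice and 1.02 ± 0.13 in App-KI mice, and the sheddase gene Adam17, which releases soluble TNF, by 0.34 ± 0.08 in App-KI mice. In that list of 14 genes, 2 were called higher with age in Trem2-KO mice and 5 in App-KI mice, and none was called between genotypes.

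Among 35 other cytokine genes, 16 were tested, and 3 were called higher with age in Trem2-KO mice and 4 in App-KI mice. Csf1, the survival factor of microglia, rose by 0.70 ± 0.08 in Trem2-KO mice and 0.82 ± 0.08 in App-KI mice, and Tgfb1, a suppressive cytokine, by 0.58 ± 0.15 in Trem2-KO mice and 1.09 ± 0.14 in App-KI mice. Tnfsf8, the CD30 ligand, had 0.288 to 0.424 CPM in Trem2-KO mice and 1.74 to 2.31 CPM in App-KI mice at 9 months, and it was called lower in Trem2-KO mice at that age, at -2.48 ± 0.45 (edgeR adjusted p = 0.00296). At 3 months it had 0 to 0.241 CPM in Trem2-KO mice and 0 to 0.0571 CPM in App-KI mice.

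**Figure D5:**
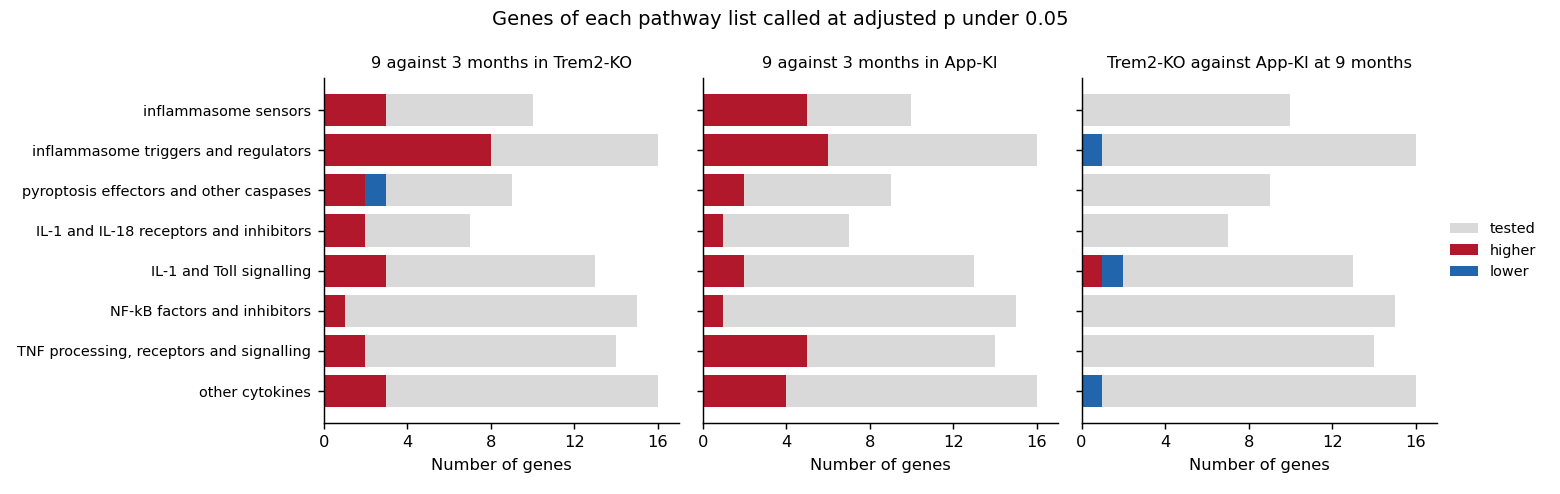
Number of genes called higher (red) and lower (blue) among those tested (grey) in each of the 8 pathway lists (vertical axis), for 9 against 3 months in Trem2-KO mice, the same in App-KI mice, and Trem2-KO against App-KI at 9 months. Called genes number 25 of 100 in the Trem2-KO age panel, 26 in the App-KI age panel and 4 of 100 in the genotype panel.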

How the data were processed

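Bulk RNA sequencing of the hippocampus of 12 mice gave 1 library each, prepared, per the labels' protocols, with a SMART-Seq mRNA LP kit. The authors deposited raw read counts per gene, whole numbers without normalisation. Named in the submitters' processing notes are featureCounts 2.0.3, STAR 2.7.10a, DESeq2 1.36.0, R 4.2.0 and the build GRCm39. The sources used here give neither the strand setting nor the annotation release. Symbols came from GENCODE M21 and matched 52073 of 56980 identifiers; that annotation is of build GRCm38, so only the promoter windows, read from RefSeq on GRCm38.p6, carry coordinates.

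Genes were filtered with edgeR's filterByExpr (minimum count 10, minimum total 15) and scaled by trimmed means of M-values. Differences were tested with the quasi-likelihood F-test of edgeR 4.0.16 in R 4.3.3, with 1 term per group and 8 residual degrees of freedom, and p-values were adjusted by the method of Benjamini and Hochberg across 19152 genes; a gene is called at an adjusted p under 0.05. Printed fold changes are moderated towards 0, and standard errors come from the F statistic. The labels name the mice but not litters or batches. The script was tested on simulated data. Alternatives were DESeq2 1.42.0, limma-voom (limma 3.58.1), DESeq2's size factors, other filters, fitting only the compared groups, leaving out each library, and, chosen after seeing the data, another transcript length.

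The members and gene lists were chosen with earlier results of these data known. Of each pathway list, up to 4 called genes per comparison, by smallest p, and the most abundant uncalled gene could be named, and for each tested member its 3 nearest genes with a proper symbol. Protein sequences were not used here, and a planned comparison of them was not made.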

Additional observations from a re-analysis of the deposited data

How the results depend on the processing

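Of the member differences recomputed under up to 18 alternatives each, 576 kept direction and side of the threshold, 21 lost the call, 1 gained it and 22 changed sign, all of the last without a call. Most of these differences were never called and so could not lose a call. The losses by age were Il1a in Trem2-KO mice (11 of 18 alternatives) and in App-KI mice (5 of 18), and Pycard in App-KI mice (3 of 18). Casp12 between genotypes at 9 months lost its call under 2 of 18. Scaling by DESeq2's size factors, DESeq2 and limma-voom shifted the median of all genes by less than 0.005 (log2).

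With each library left out in turn, the members called numbered 0 to 1 between genotypes at 9 months, 2 to 3 for age in Trem2-KO mice and 0 to 2 for age in App-KI mice (1 or 0 without replicates 2 and 3 at 3 months and each replicate at 9 months). The Il1a call for age in App-KI mice was lost without those same 5 libraries (1.04 to 1.50, edgeR adjusted p 0.0620 to 0.144). In Trem2-KO mice it was lost under 11 of 18 alternatives, among them limma-voom (1.28, adjusted p = 0.0776) and the compared groups alone (1.35, adjusted p = 0.0563). Pycard and Casp12 kept their age calls in Trem2-KO mice under all 18, with adjusted p up to 0.0295 and 0.0158.

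Pathway genes called ranged from 1 to 4 between genotypes at 9 months (2 without Trem2-KO replicate 1, 1 without App-KI replicate 3), 0 to 1 at 3 months, 13 to 24 for age in Trem2-KO mice and 0 to 1 for the interaction when leaving out libraries. At 3 months they numbered 2 with no filter, 1 with DESeq2 and 1 with the compared groups alone, and for the interaction 1 with no filter and 1 with DESeq2.

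Signs changed for Il18 (genotype at 9 months, leave-one-out range -0.011 to 0.13; at 3 months -0.075 to 0.016; age in Trem2-KO mice -0.087 to 0.043, and 0.00057 with no filter), Casp4 (genotype at 9 months -1.22 to 0.061; at 3 months -0.27 to 0.92; age in Trem2-KO mice -0.54 to 0.40, and 0.11 with limma-voom), Il1a (genotype at 3 months -0.71 to 0.14; interaction -0.53 to 0.32), Nlrp3 (interaction -0.42 to 0.065) and Pycard (interaction -0.013 to 0.29). The causes were not tested. No paired analysis was possible because the labels carry no replicate numbers, and numbers given in accession order only name the mice. Depth limits Il1b, Il1rn, Tnf and Casp4 most.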
